A study of Rattus norvegicus with 40 samples.

Results

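Interferon-stimulated genes are the genes that cells switch on when they meet interferons, and 39 of them were followed here in the livers of rats given diethylnitrosamine (DEN), a carcinogen activated in hepatocytes. The members were chosen by symbol: sensors of viral RNA, transcription factors of the interferon response, antiviral effectors, the Isg15 conjugation system, ADP-ribosylation enzymes and inducible GTPases. Of these 39 symbols, 35 had a row among the 17337 genes counted, and Herc6, Xaf1, Parp12 and Samd9l were not analysed here. In each comparison of DEN-treated with untreated tissue 34 members passed the filter on low counts. The member that did not pass was Ifit1, with at most 1 read pair in any no DEN library and 0 to 14 pairs in the DEN libraries.

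RNA was sequenced in 40 libraries from 24 male Fischer 344 rats, and all groups held 4 rats. Treatment began at 7 weeks of age with 50 mg/kg DEN injected into the peritoneum each week, diluted in olive oil. Non-tumoral (NT) liver was taken after 8 weeks of injections, after 14 weeks of injections, and at 20 weeks, when the rats had gone 6 weeks without DEN. Tumoral (T) tissue was 2 nodules from each of the same rats at 14 and 20 weeks, and the 2 nodules of a rat were summed before testing. The no DEN rats were of the same strain, sex and age at each of the 3 times and received no DEN, and no injection of olive oil alone is described for them. All 3 comparisons made at 14 weeks, and likewise at 20 weeks, share rats, and the nodule and NT comparisons with no DEN liver use the same 4 untreated livers.

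Type I interferons act through a receptor whose kinases, Jak1 and Tyk2, set off a complex that holds Stat2 and Irf9 and binds a DNA sequence called the interferon-stimulated response element. Interferon gamma acts mainly through another sequence, the GAS element. In liver both hepatocytes and resident or recruited leukocytes answer interferons, and the products detect viral RNA, degrade it, block translation or mark proteins for degradation.

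The libraries held 20528515 to 160622633 counted read pairs with a median of 30477421, and the largest, NT liver of rat H26 at 20 weeks, was 4.08 times the next. Levels are given as CPM, counts scaled to library size with the TMM correction for library composition, and at the median depth 1 CPM is 30.5 read pairs. Hepatocyte RNA was abundant in every group: the 6 hepatocyte markers summed to 269540 to 314672 CPM in no DEN liver, 179464 to 280668 CPM in NT liver and 154416 to 219167 CPM in nodules. The ranges of NT liver and nodules overlapped, so this sum does not check the NT and T labels. Other cells moved with the treatment. The 3 pan-leukocyte markers, Ptprc, Coro1a and Laptm5, were higher in all 5 comparisons of DEN tissue with no DEN liver, and their sum ranged over 22.6 to 50.5 CPM in no DEN liver, 38.98 to 89.4 CPM in NT liver and 46.3 to 95.4 CPM in nodules. Of the 49 cell type markers with a row, 25 of 45 tested were higher and 1 lower in NT liver at 8 weeks, 23 of 43 higher and 4 lower at 14 weeks, and 21 of 44 higher and 0 lower at 20 weeks. In nodules 21 of 45 were higher and 3 lower at both 14 and 20 weeks. The shares of all genes in these comparisons were 14.3 to 23.9% higher and 3.82 to 15.2% lower. Ms4a1, Ccr9, Bcl11a and Mpo, which mark B cells, plasmacytoid dendritic cells and neutrophil precursors, were at 0 in at least 2 of the 32 tissue samples. In bulk tissue fewer cells of a type and less RNA per cell cannot be told apart, and the part of these other cells in the results that follow was not tested.

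The labels number the rats with a letter F or H, whose meaning they do not give. All 12 no DEN rats carry H, while F marks 2 of 4 DEN rats at 8 weeks and 1 of 4 at 14 and at 20 weeks. The nodules of rat F06 at 14 weeks stood apart from the nodules of the H rats, with 63.2 and 44.7 read pairs outside annotated exons per 100 counted pairs, against 34.2 to 42.5 in the 12 nodules of H rats. With nodules scaled singly and the genes chosen after their values were seen, Isg15, a ubiquitin-like antiviral modifier, was at 41.3 and 27.4 CPM in these 2 nodules and at 9.31 to 15.0 CPM in those of H rats. Trim25, a ubiquitin ligase that activates RNA sensing, was at 8.42 and 10.2 CPM there and at 15.6 to 32.3 CPM in nodules of H rats. Results are therefore given with H rats only where this ends a member's call, and the calls it adds are given together after the members. The part of rat letter was not tested.

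Promoter sequence was looked at because the members share one textbook response element, while their levels moved in opposite directions. In the RefSeq promoter table of the rat build GRCr8, which differs from the rn6 build used for counting, 26 of the 35 members with counts had a window of 250 bases before to 50 after the annotated start. The element was searched as GAAANNGAAA or, on the other strand, TTTCNNTTTC, and the GAS element as TTCNNNGAA, which reads the same on both strands. The response element stood in 17 of these 26 windows (65.4%) and in 1312 of the 33469 windows of all genes (3.92%). The GAS element stood in 7 of 26 member windows (26.9%) and in 8.87% of all windows, and in 1 member both elements overlapped. Stretches are printed for the members described in full below that hold the element, and for Oas1b beside its neighbour Oas1a. Each runs 5′ to 3′ on the strand of its gene with the element in capitals and 8 bases on either side, and is followed by its place and the distance of the first capital from the start.
Gbp5: ttgtgtagTTTCAATTTCagtttaga (chr2:233910935-233910960, + strand, first capital at -56)
Gbp2: ttttttagTTTCACTTTCattgtctt (chr2:234005688-234005713, + strand, first capital at -31)
Isg20: atgaaccaGAAACTGAAActaaaacg (chr1:142239959-142239984, + strand, first capital at -92)
Ifit3: taagtctgTTTCAGTTTCtagtttcc (chr1:241527274-241527299, + strand, first capital at -44)
Oas3: agagaggaGAAAACGAAAgtgaatga (chr12:41439629-41439654, + strand, first capital at -95)
Rsad2: ggttcaacTTTCATTTTCagaaaaca (chr6:48788250-48788275, - strand, first capital at -147)
Oas1a: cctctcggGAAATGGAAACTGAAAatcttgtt (chr12:41330417-41330448, + strand, first capital at -41)
Oas1b: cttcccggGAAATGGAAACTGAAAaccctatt (chr12:41395888-41395919, - strand, first capital at -59)
The same core of 2 overlapping elements stood in the windows of Oas1a and Oas1b, while the other printed members held a single element. Cmpk2, Mx1 and Oasl had a window without the letters searched. For Ddx58, Dhx58, Ifit1, Ifit2, Isg15, Mx2, Oas2, Rtp4 and Usp18 no window was matched by symbol, so a window listed under another name would be missed. Of the members with a window, 6 of the 9 called higher at least once (66.7%), 8 of the 12 called lower at least once (66.7%) and 3 of the 5 tested and not called held one. The 6 include Oas3, whose call is not read as a result below. A match describes letters in the window and is no measure of factor binding.

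**Figure D1:**
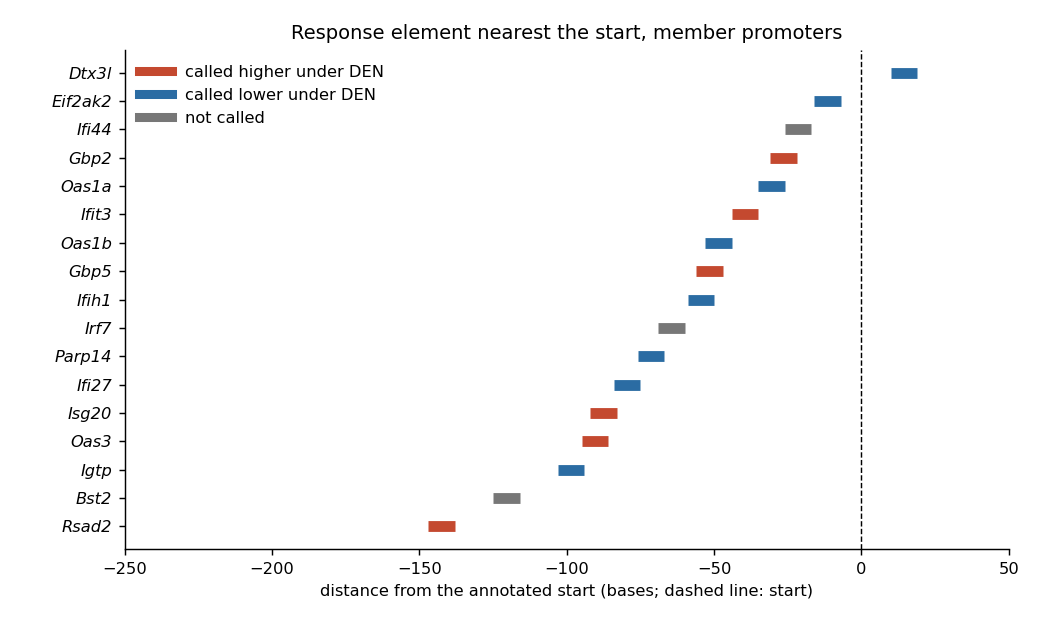
Position of the response element nearest the annotated start in the 17 member promoters that hold one, in bases from the start on the x axis, with members on the y axis and bars coloured by the direction of their calls. The 6 members called higher lie from -147 (Rsad2) to -31 (Gbp2), the 8 called lower from -103 (Igtp) to 10 (Dtx3l), and the 3 not called from -125 (Bst2) to -26 (Ifi44).

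A member was called where its log2 fold change was at least 0.5 in size and its adjusted p at most 0.05 over all genes tested. Under DEN some members were higher and others lower at the same time, and no member was called in both directions. In NT liver at 8 weeks 9 of 34 members (26.5%) were higher and 1 (2.94%) was lower, where 16.5% of all 10812 genes tested were higher and 5.21% lower. Without rat H17, 8 members were higher and 3 lower, against 17.7% and 9.15% of all genes. In NT liver at 14 weeks 10 members (29.4%) were higher and 6 (17.6%) lower, against 22.8% and 9.85% of 11016 genes. In NT liver at 20 weeks 5 members (14.7%) were higher and 2 (5.88%) lower, against 14.3% and 3.82% of 10827 genes. The count of 7 at 20 weeks fell to 4 when the untreated rat H14, H15 or H16 was left out, and the shares of all genes were then 9.18 to 11.2% higher and 3.25 to 4.21% lower.

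At 14 weeks 9 members (26.5%) were higher and 10 (29.4%) lower in nodules than in no DEN liver, against 23.9% and 15.2% of 11316 genes. Without the nodules of rat H22, 10 members were higher and 6 lower, against 23% and 12.6% of all genes. At 20 weeks 7 members (20.6%) were higher and 11 (32.4%) lower, against 23.6% and 15.2% of 11199 genes. These shares are set side by side as a description, without a test. The median log2 fold change over the 34 members was 0.03, -0.09 and -0.09 in NT liver at 8, 14 and 20 weeks and -0.18 and -0.23 in nodules at 14 and 20 weeks, where the median of all genes lay between -0.01 and 0.02. Over the 5 comparisons 11 members were called higher at least once, 14 were called lower at least once, and 9 were called in none. Gbp5, Isg20, Cmpk2, Oas2 and Mx1 were higher in all 5 comparisons, and Ddx58 was lower in all 5. Comparisons of the same week share rats, so repeated calls are not independent. Such counts were not made over all genes, and they are not read as particular to the members. The 11 members, and those higher in NT liver at 14 weeks, include Oas3, whose call is set aside below.

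**Figure D2:**
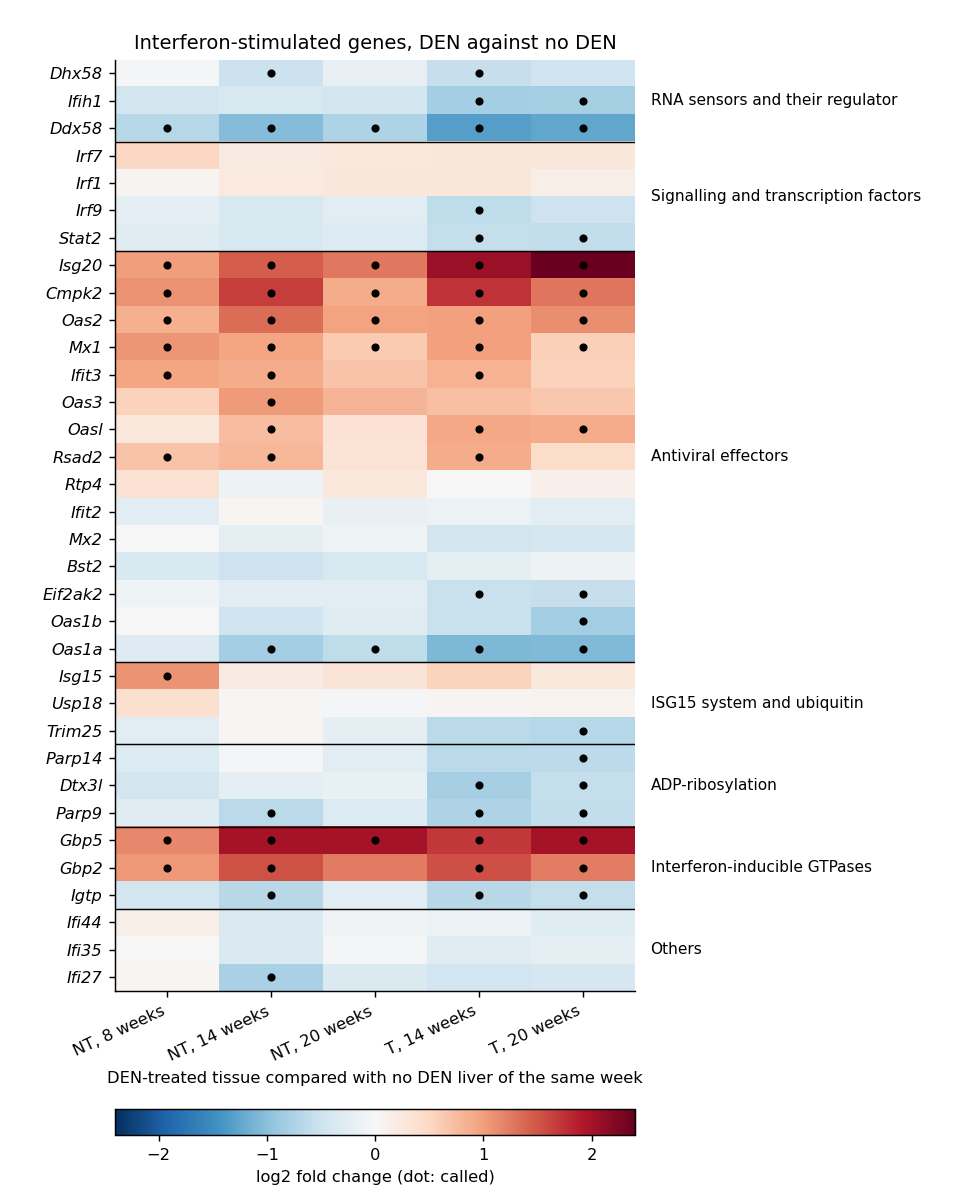
Heat map of log2 fold changes (colour scale) of the 34 members tested, in rows grouped by role, for DEN tissue against no DEN liver of the same week, in 5 columns. Black dots mark called members: the rows of Gbp5, Isg20, Cmpk2, Oas2 and Mx1 carry red in all 5 columns, and that of Ddx58 blue in all 5.

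Of the 3 sensors of viral RNA none was called higher, and 1, 2 and 1 were lower in NT liver at 8, 14 and 20 weeks and 3 and 2 in nodules at 14 and 20 weeks. The shares of all genes lower were 5.21%, 9.85% and 3.82% in NT liver and 15.2% in nodules at both times. In what follows values stand in the order of the rats: H05 to H08, H09 to H12 and H13 to H16 for no DEN liver, F09, F10, H17 and H18 at 8 weeks, F06, H21, H22 and H23 at 14 weeks, and F03, H25, H26 and H28 at 20 weeks. Ddx58 encodes RIG-I, which binds viral RNA with a free triphosphate end and signals through Mavs. Ddx58 was at 122, 134, 132 and 128 CPM in the 4 no DEN livers at 8 weeks, 142, 144, 150 and 138 CPM at 14 weeks, and 125, 138, 154 and 145 CPM at 20 weeks. In NT liver it was at 80.9, 65.0, 96.5 and 79.7 CPM at 8 weeks, 70.0, 63.1, 67.6 and 71.8 CPM at 14 weeks, and 73.4, 82.2, 88.1 and 89.9 CPM at 20 weeks. Nodules held 57.5, 54.3, 58.4 and 63.2 CPM at 14 weeks and 56.5, 74.0, 57.7 and 52.5 CPM at 20 weeks. All 20 values of DEN tissue lay under the lowest of the 12 untreated livers. The log2 fold change of Ddx58 against untreated liver was -0.68 (SE 0.11, adjusted p = 0.00109) at 8 weeks, -1.04 (SE 0.06, adjusted p = 1.88e-06) at 14 weeks and -0.74 (SE 0.09, adjusted p = 0.000602) at 20 weeks in NT liver. In nodules the value was -1.32 (SE 0.08, adjusted p = 5.76e-06) at 14 weeks and -1.25 (SE 0.13, adjusted p = 7.15e-05) at 20 weeks.

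Ifih1 (MDA5), which senses long double-stranded RNA, was lower in nodules at 14 weeks (log2 fold change -0.81, SE 0.22, adjusted p = 0.0130) and at 20 weeks (-0.80, SE 0.11, adjusted p = 0.000385), and was not called in NT liver. Its levels were 27.0 to 31.2 CPM in no DEN liver at 14 weeks and 9.11, 19.0, 16.9 and 21.02 CPM in the nodules, so the groups did not overlap and rat F06 was the lowest. With nodule 1 of each rat alone the 14 week call was lost (adjusted p = 0.0662). Dhx58 (LGP2), a regulator of both sensors, was lower at 14 weeks in NT liver (-0.51, SE 0.09, adjusted p = 0.00105) and in nodules (-0.55, SE 0.12, adjusted p = 0.00547). These sizes sat at the threshold, and the call was lost in NT liver without rat H21, H22, H10 or H12 and in nodules without H22, with adjusted p still at most 0.00430 and 0.0192.

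Among transcription factors, Stat2 and Irf9, partners in the factor that binds the response element, were the ones called, and both were lower. Stat2 was lower in nodules at 14 weeks (-0.57, SE 0.09, adjusted p = 0.000582) and 20 weeks (-0.59, SE 0.10, adjusted p = 0.000823). It was at 112 to 126 CPM in no DEN liver and 73.7 to 87.0 CPM in nodules at 14 weeks, with no overlap, and without rat H22 the call was lost because the log2 fold change of -0.50 fell just short of the size limit. Irf9 was lower in nodules at 14 weeks (-0.61, SE 0.11, adjusted p = 0.00193), and at 20 weeks it stood at -0.50, just short of the size limit (adjusted p = 0.00179). Irf7, which amplifies the production of type I interferon, and Irf1, which also answers interferon gamma, were called in none of the 5 comparisons, with log2 fold changes of 0.22 to 0.49 and 0.07 to 0.28.

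Antiviral effectors were the largest group, with 15 of the 34 members tested, and held most of the members that were higher. In NT liver 6, 8 and 4 were higher and 0, 1 and 1 lower at 8, 14 and 20 weeks, and in nodules 7 and 5 were higher and 2 and 3 lower at 14 and 20 weeks. The 8 at 14 weeks include Oas3. Of all genes 16.5%, 22.8% and 14.3% were higher and 5.21%, 9.85% and 3.82% lower in NT liver. In nodules 23.9% and 23.6% of all genes were higher, and 15.2% were lower at both times. Isg20 encodes an exonuclease that degrades viral RNA. Isg20 was at 1.31, 1.13, 1.05 and 1.69 CPM in the 4 no DEN livers at 8 weeks, 1.03, 1.36, 1.03 and 1.82 CPM at 14 weeks, and 1.31, 1.496, 1.09 and 0.756 CPM at 20 weeks. NT liver held 2.67, 2.48, 2.36 and 2.98 CPM at 8 weeks, 2.99, 4.04, 3.77 and 3.29 CPM at 14 weeks, and 2.58, 2.05, 2.96 and 3.45 CPM at 20 weeks. In the nodules Isg20 was at 7.74, 4.66, 5.43 and 4.63 CPM at 14 weeks and 4.26, 3.74, 6.75 and 9.76 CPM at 20 weeks. No untreated liver reached the lowest NT liver, and no NT liver of a given week reached the lowest nodule of that week. Against no DEN liver, the log2 fold change of Isg20 was 1.01 (SE 0.19, adjusted p = 0.00246) at 8 weeks, 1.45 (SE 0.20, adjusted p = 0.000192) at 14 weeks and 1.27 (SE 0.25, adjusted p = 0.00475) at 20 weeks in NT liver. Nodules gave 2.08 (SE 0.26, adjusted p = 0.000218) at 14 weeks and 2.37 (SE 0.34, adjusted p = 0.000459) at 20 weeks. The nodules at 20 weeks gave the largest rise of any member.

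Cmpk2, a mitochondrial nucleotide kinase that sits next to Rsad2 in the genome, was higher in all 5 comparisons. It was at 3.97, 3.90, 3.18 and 3.11 CPM in the 4 no DEN livers at 8 weeks, 1.92, 3.04, 3.03 and 3.02 CPM at 14 weeks, and 3.75, 2.83, 3.19 and 2.85 CPM at 20 weeks. In NT liver the levels were 5.68, 7.06, 7.95 and 9.42 CPM at 8 weeks, 8.71, 8.25, 7.77 and 9.08 CPM at 14 weeks, and 4.88, 5.13, 6.38 and 6.93 CPM at 20 weeks. The nodule pairs were at 8.68, 9.33, 9.17 and 9.82 CPM at 14 weeks and 7.48, 6.69, 8.32 and 9.07 CPM at 20 weeks. The untreated livers lay below all DEN tissue, and NT liver at 20 weeks lay lower than at 14 weeks without overlap. On the log2 scale Cmpk2 differed from no DEN liver by 1.08 (SE 0.17, adjusted p = 0.00101) at 8 weeks, 1.65 (SE 0.15, adjusted p = 1.49e-05) at 14 weeks and 0.90 (SE 0.17, adjusted p = 0.00357) at 20 weeks in NT liver. For nodules it was 1.73 (SE 0.16, adjusted p = 5.14e-05) at 14 weeks and 1.29 (SE 0.15, adjusted p = 0.000131) at 20 weeks. The effect of DEN on NT liver was lower at 20 than at 14 weeks by 0.75 on the log2 scale, which did not pass the test of the difference (SE 0.22, adjusted p = 0.111).

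Rsad2 encodes viperin, an enzyme that makes a chain-terminating nucleotide. Rsad2 was at 3.48, 3.02, 3.26 and 3.34 CPM in the 4 no DEN livers at 8 weeks, 3.41, 2.84, 3.31 and 3.42 CPM at 14 weeks, and 3.38, 3.15, 4.04 and 3.53 CPM at 20 weeks. The NT livers of DEN rats had 4.52, 5.11, 5.46 and 6.20 CPM at 8 weeks, 6.81, 5.03, 3.97 and 6.16 CPM at 14 weeks, and 4.85, 3.63, 4.84 and 4.29 CPM at 20 weeks. Nodules were at 9.24, 4.81, 4.32 and 5.94 CPM at 14 weeks and 5.18, 4.82, 4.89 and 4.61 CPM at 20 weeks. At 8 and 14 weeks the groups did not overlap, and at 20 weeks NT liver of rat H25 lay within the untreated range. Fitted log2 fold changes of Rsad2 against no DEN liver were 0.69 (SE 0.14, adjusted p = 0.00335) at 8 weeks, 0.79 (SE 0.17, adjusted p = 0.00229) at 14 weeks and 0.33 (SE 0.15, adjusted p = 0.128) at 20 weeks in NT liver. In nodules it was 0.89 (SE 0.25, adjusted p = 0.0153) at 14 weeks and 0.44 (SE 0.13, adjusted p = 0.0183) at 20 weeks. At 20 weeks the nodules passed the adjusted p and missed the size limit.

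The 2′-5′ oligoadenylate synthetases make the signal that activates the ribonuclease RNase L, and they split by gene. Oas2 was higher throughout. Oas2 was at 1.51, 0.671, 1.05 and 1.06 CPM in the 4 no DEN livers at 8 weeks, 0.497, 0.561, 0.855 and 0.8293 CPM at 14 weeks, and 0.469, 0.695, 0.808 and 0.462 CPM at 20 weeks. NT liver was at 1.54, 1.52, 2.30 and 2.47 CPM at 8 weeks, 2.17, 1.33, 1.42 and 1.95 CPM at 14 weeks, and 1.88, 1.04, 1.02 and 0.863 CPM at 20 weeks. Nodules held 1.31, 1.44, 0.995 and 1.74 CPM at 14 weeks and 1.69, 1.17, 1.57 and 0.958 CPM at 20 weeks. The untreated livers lay below the DEN tissue of the same week in all 5 comparisons, by a narrow gap at 8 weeks. For Oas2 the log2 fold change from untreated liver was 0.85 (SE 0.27, adjusted p = 0.0321) at 8 weeks, 1.35 (SE 0.26, adjusted p = 0.00115) at 14 weeks and 0.97 (SE 0.32, adjusted p = 0.0451) at 20 weeks in NT liver. In nodules the value was 0.98 (SE 0.27, adjusted p = 0.0141) at 14 weeks and 1.12 (SE 0.29, adjusted p = 0.00919) at 20 weeks. Several calls depended on single rats: that at 8 weeks was lost without rat H17, H18, H06, H07 or H08 (adjusted p up to 0.0927), and that in NT liver at 20 weeks without F03, H25, H26, H13, H14, H15 or H16 and with H rats only (adjusted p up to 0.138). With nodule 1 of each rat alone the call at 20 weeks was lost too (adjusted p = 0.0610).

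Oas3 was called once, in NT liver at 14 weeks, with the lowest counts of the members tested (7 to 116 read pairs in a library). In untreated livers of 14 and 20 weeks alone, 14 of the 15 antiviral effectors passed the filter on low counts, and Oas3 was the lowest there. It can thus pass at 14 weeks through the DEN samples where it is high, so its call is not read as a result. Oas3 was at 0.941, 0.755, 0.582 and 0.747 CPM in the 4 no DEN livers at 8 weeks, 0.426, 0.320, 0.677 and 0.365 CPM at 14 weeks, and 0.704, 0.374, 0.333 and 0.378 CPM at 20 weeks. NT liver held 1.08, 1.25, 1.12 and 1.03 CPM at 8 weeks, 1.26, 0.613, 0.516 and 1.18 CPM at 14 weeks, and 1.02, 0.628, 0.695 and 0.835 CPM at 20 weeks. The nodule pairs were at 0.802, 0.754, 0.565 and 0.875 CPM at 14 weeks and 0.770, 0.932, 0.592 and 0.575 CPM at 20 weeks. The untreated rat H11 at 14 weeks lay above 2 of the 4 NT livers. The log2 fold change of Oas3 against untreated liver was 0.56 (SE 0.21, adjusted p = 0.0580) at 8 weeks, 1.03 (SE 0.36, adjusted p = 0.0335) at 14 weeks and 0.81 (SE 0.31, adjusted p = 0.0765) at 20 weeks in NT liver. Nodules gave 0.72 (SE 0.29, adjusted p = 0.0627) at 14 weeks and 0.65 (SE 0.32, adjusted p = 0.111) at 20 weeks. The call was lost without rat F06, H23, H09, H10 or H12 and with H rats only, where the log2 fold change was 0.81 (adjusted p up to 0.0929).

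Oasl, a relative of the synthetases without their enzyme activity, was higher at 14 weeks in NT liver and in nodules at both times. Oasl was at 6.46, 5.71, 6.60 and 4.17 CPM in the 4 no DEN livers at 8 weeks, 4.15, 8.61, 7.59 and 6.54 CPM at 14 weeks, and 5.68, 10.3, 7.42 and 7.47 CPM at 20 weeks. In NT liver the levels were 6.36, 5.75, 7.66 and 7.53 CPM at 8 weeks, 8.21, 11.8, 11.9 and 11.7 CPM at 14 weeks, and 9.72, 7.81, 9.60 and 11.5 CPM at 20 weeks. Nodules were at 11.6, 14.7, 14.2 and 11.5 CPM at 14 weeks and 12.6, 10.8, 17.05 and 18.2 CPM at 20 weeks. NT liver of rat F06 lay within the untreated range at 14 weeks, while the nodules lay above the untreated livers at 14 and at 20 weeks. Against no DEN liver, the log2 fold change of Oasl was 0.25 (SE 0.16, adjusted p = 0.266) at 8 weeks, 0.74 (SE 0.21, adjusted p = 0.0137) at 14 weeks and 0.34 (SE 0.18, adjusted p = 0.178) at 20 weeks in NT liver. For nodules it was 0.93 (SE 0.21, adjusted p = 0.00514) at 14 weeks and 0.90 (SE 0.20, adjusted p = 0.00442) at 20 weeks.

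Oas1a moved the other way. Oas1a was at 15.2, 11.2, 13.3 and 11.8 CPM in the 4 no DEN livers at 8 weeks, 13.6, 17.5, 16.5 and 13.2 CPM at 14 weeks, and 16.1, 17.6, 15.8 and 16.6 CPM at 20 weeks. The NT livers of DEN rats had 10.4, 10.4, 11.3 and 9.86 CPM at 8 weeks, 9.86, 7.03, 6.77 and 10.2 CPM at 14 weeks, and 12.05, 13.8, 10.7 and 6.68 CPM at 20 weeks. Nodules held 5.78, 7.19, 6.70 and 9.32 CPM at 14 weeks and 8.63, 10.4, 8.20 and 4.90 CPM at 20 weeks. DEN tissue lay below the untreated livers without overlap at 14 and 20 weeks. On the log2 scale Oas1a differed from no DEN liver by -0.30 (SE 0.11, adjusted p = 0.0572) at 8 weeks, -0.81 (SE 0.15, adjusted p = 0.00136) at 14 weeks and -0.61 (SE 0.17, adjusted p = 0.0256) at 20 weeks in NT liver. In nodules it was -1.09 (SE 0.16, adjusted p = 0.000596) at 14 weeks and -1.07 (SE 0.20, adjusted p = 0.00163) at 20 weeks. The call in NT liver at 20 weeks was lost without rat H26, H28, H14, H15 or H16 (adjusted p up to 0.0641). Oas1b, the neighbouring gene with the same promoter core, was lower in nodules at 20 weeks (-0.83, SE 0.24, adjusted p = 0.0147), at 3.09, 2.48, 2.22 and 1.65 CPM against 3.10 to 5.02 CPM in untreated liver. Read pairs that aligned to several places had been dropped, so the levels of the closely related Oas1a and Oas1b, and of Mx1 and Mx2, Gbp2 and Gbp5 and the Ifit genes, are uncertain to the extent that such pairs were lost.

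Mx1, a dynamin-like GTPase that traps viral particles, was higher in all 5 comparisons. Mx1 was at 7.94, 5.29, 5.78 and 5.94 CPM in the 4 no DEN livers at 8 weeks, 4.54, 4.77, 5.45 and 5.01 CPM at 14 weeks, and 5.39, 4.92, 4.42 and 4.03 CPM at 20 weeks. NT liver was at 10.1, 10.9, 14.4 and 16.5 CPM at 8 weeks, 14.7, 7.31, 5.74 and 9.48 CPM at 14 weeks, and 9.28, 5.10, 7.71 and 6.60 CPM at 20 weeks. The nodule pairs were at 15.5, 8.72, 6.19 and 8.93 CPM at 14 weeks and 8.44, 6.51, 8.08 and 5.50 CPM at 20 weeks. The DEN tissue lay above the untreated livers of its week except NT liver of H25 at 20 weeks, and F rats were the highest of 4 at 14 and 20 weeks. Fitted log2 fold changes of Mx1 against no DEN liver were 1.05 (SE 0.18, adjusted p = 0.00163) at 8 weeks, 0.95 (SE 0.26, adjusted p = 0.0118) at 14 weeks and 0.62 (SE 0.18, adjusted p = 0.0278) at 20 weeks in NT liver. In nodules the value was 0.98 (SE 0.26, adjusted p = 0.0130) at 14 weeks and 0.58 (SE 0.17, adjusted p = 0.0163) at 20 weeks. In NT liver at 20 weeks the call was lost without F03, H26, H14, H15 or H16, in 1 fit of all 8 groups and with H rats only (log2 fold change 0.48 in H rats, adjusted p up to 0.0955). In nodules at 20 weeks it was lost without H16, in the fit of all 8 groups and with nodule 1 of each rat alone (adjusted p up to 0.0546). Its paralog Mx2 was called in none, with log2 fold changes of -0.45 to 0.01.

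Ifit3, a tetratricopeptide protein that helps bind foreign RNA caps, was higher at 8 weeks and in both tissues at 14 weeks. Ifit3 was at 4.99, 3.36, 3.88 and 5.03 CPM in the 4 no DEN livers at 8 weeks, 3.02, 3.08, 4.84 and 4.35 CPM at 14 weeks, and 6.57, 3.37, 3.38 and 3.19 CPM at 20 weeks. NT liver held 8.20, 6.68, 9.54 and 8.97 CPM at 8 weeks, 9.89, 5.06, 5.97 and 6.72 CPM at 14 weeks, and 7.33, 4.94, 6.95 and 7.01 CPM at 20 weeks. Nodules were at 11.0003, 5.35, 5.30 and 6.12 CPM at 14 weeks and 6.75, 5.80, 6.62 and 5.52 CPM at 20 weeks. At 8 and 14 weeks the groups did not overlap, and at 20 weeks rat H13 of the untreated group lay above 2 of the 4 nodule pairs. For Ifit3 the log2 fold change from untreated liver was 0.95 (SE 0.17, adjusted p = 0.00187) at 8 weeks, 0.88 (SE 0.23, adjusted p = 0.00815) at 14 weeks and 0.68 (SE 0.24, adjusted p = 0.0522) at 20 weeks in NT liver. Nodules gave 0.84 (SE 0.28, adjusted p = 0.0336) at 14 weeks and 0.55 (SE 0.23, adjusted p = 0.0638) at 20 weeks. The call in nodules at 14 weeks was lost without untreated rat H09, H10 or H12 (adjusted p up to 0.0933). Ifit2, of the same family, was called in none (log2 fold changes -0.25 to 0.05).

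Eif2ak2 (PKR), which halts translation on double-stranded RNA, was lower in nodules at 14 and 20 weeks (both log2 fold changes -0.54, adjusted p = 0.00113 and 0.00439). The sizes lay near the limit: the 14 week call was lost without H22 or with nodule 1 of each rat alone, and the 20 week call without F03, H28 or H15, with nodule 2 alone and with H rats only (-0.50, adjusted p = 0.0128). Bst2, which tethers virus to the cell surface, and Rtp4, a receptor transporter with antiviral activity, were called in none.

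**Figure D3:**
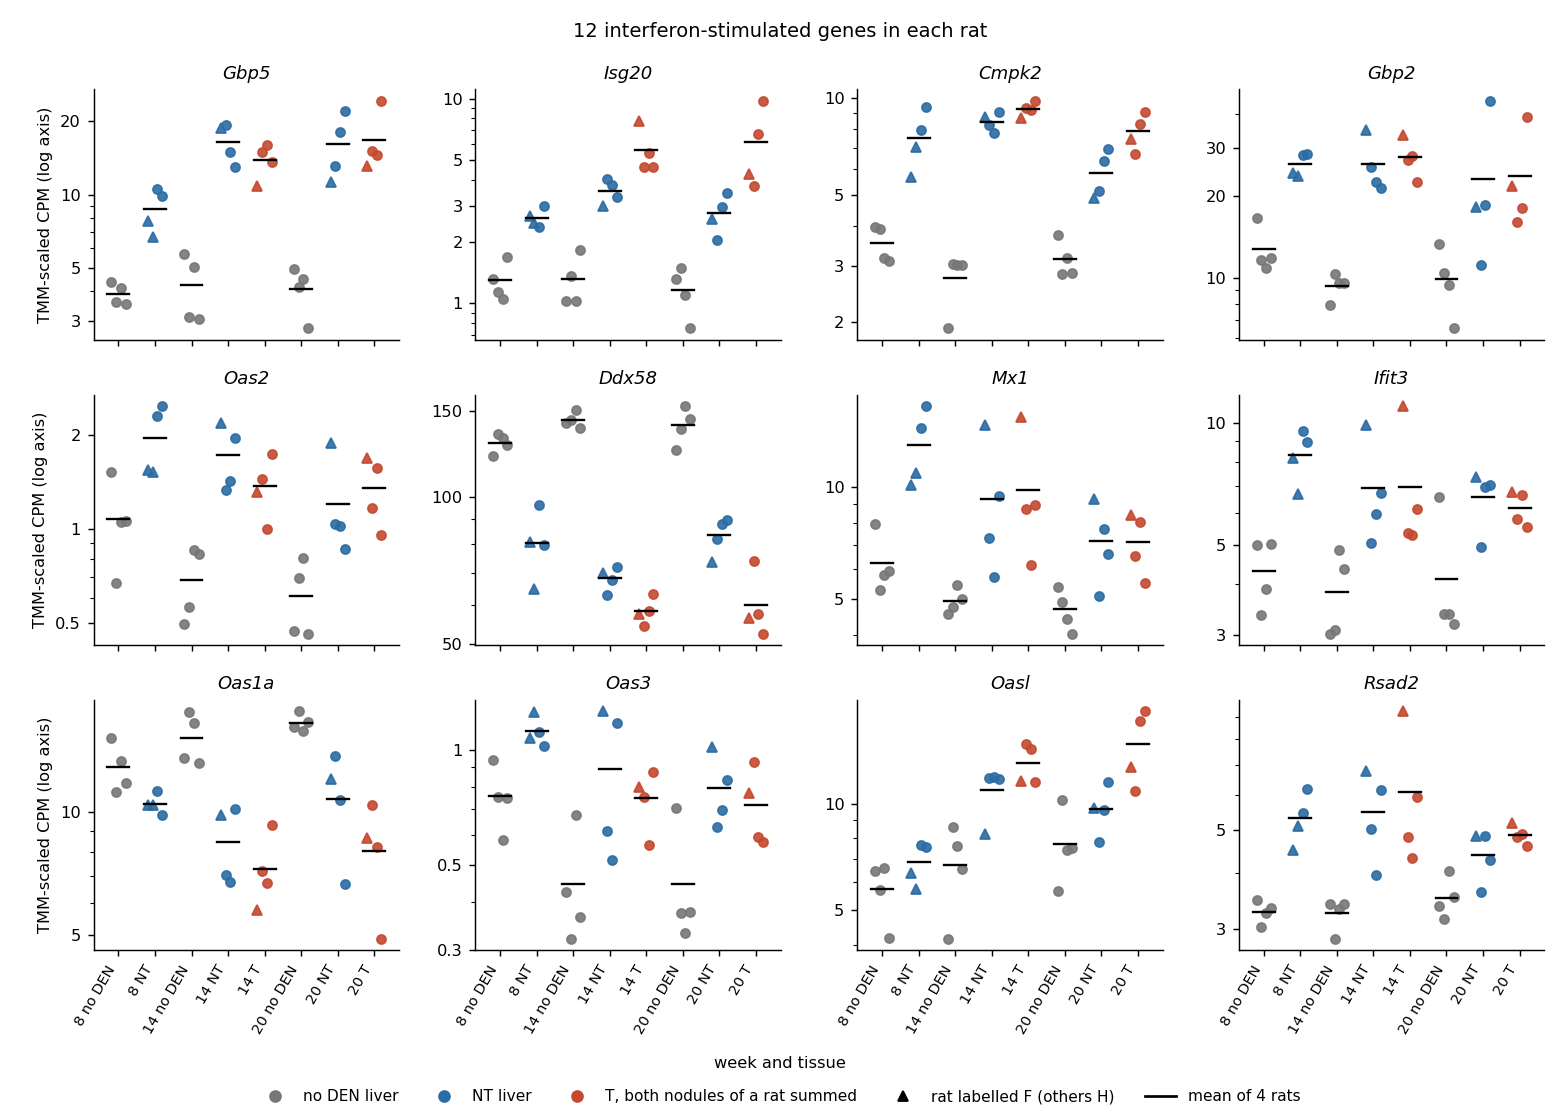
Level of 12 members in each rat, in TMM-scaled CPM on a log axis, by week and tissue, with grey for no DEN liver, blue for NT liver, red for nodules, triangles for rats labelled F and lines at the mean of 4 rats. Gbp5, Isg20 and Cmpk2 lie higher in DEN tissue in every week, and Ddx58 falls from 122 to 154 CPM in untreated liver to 52.5 to 96.5 CPM under DEN.

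Of the 3 interferon-inducible GTPases among the members, the guanylate-binding proteins Gbp5 and Gbp2 rose and the immunity-related GTPase Igtp fell. Ifi47 and Irgm, immunity-related GTPases counted below with the interferon gamma genes, did not follow Igtp at 14 weeks. There Ifi47 averaged 13.7 CPM in untreated liver, 39.9 CPM in NT liver and 50.2 CPM in nodules, and Irgm 46.1, 43.5 and 46.7 CPM. Gbp5 promotes assembly of inflammasomes. Gbp5 was at 4.38, 3.61, 4.11 and 3.54 CPM in the 4 no DEN livers at 8 weeks, 5.68, 3.12, 5.02 and 3.09 CPM at 14 weeks, and 4.93, 4.17, 4.47 and 2.81 CPM at 20 weeks. In NT liver the levels were 7.77, 6.68, 10.6 and 9.86 CPM at 8 weeks, 18.7, 19.3, 15.0 and 13.04 CPM at 14 weeks, and 11.2, 13.1, 18.1 and 22.2 CPM at 20 weeks. Nodules held 10.8, 15.0, 15.98 and 13.6 CPM at 14 weeks and 13.1, 15.2, 14.5 and 24.3 CPM at 20 weeks. All 20 values of DEN tissue lay above all 12 untreated livers, and in NT liver the values at 14 and 20 weeks lay above those at 8 weeks. The log2 fold change of Gbp5 against untreated liver was 1.15 (SE 0.17, adjusted p = 0.000626) at 8 weeks, 2.003 (SE 0.21, adjusted p = 6.70e-05) at 14 weeks and 1.998 (SE 0.24, adjusted p = 0.000691) at 20 weeks in NT liver. For nodules it was 1.69 (SE 0.22, adjusted p = 0.000305) at 14 weeks and 2.01 (SE 0.23, adjusted p = 0.000131) at 20 weeks. The step in its response from 8 to 14 weeks was 0.85 on the log2 scale by edgeR and missed the test of the difference (SE 0.28, adjusted p = 0.0665). DESeq2 called this step, at 0.84.

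Gbp2, a membrane-targeted member of the same family, was called in 4 comparisons. Gbp2 was at 16.5, 11.6, 10.9 and 11.8 CPM in the 4 no DEN livers at 8 weeks, 7.92, 10.3, 9.55 and 9.52 CPM at 14 weeks, and 13.3, 10.4, 9.37 and 6.51 CPM at 20 weeks. The NT livers of DEN rats had 24.3, 23.6, 28.3 and 28.5 CPM at 8 weeks, 34.9, 25.6, 22.5 and 21.3 CPM at 14 weeks, and 18.2, 11.1, 18.5 and 44.7 CPM at 20 weeks. The nodule pairs were at 33.4, 27.1, 27.95 and 22.4 CPM at 14 weeks and 21.6, 16.1, 18.04 and 38.9 CPM at 20 weeks. Rat H28 at 20 weeks was far above the other 3 in both tissues, and NT liver of H25 lay within the untreated range. Against no DEN liver, the log2 fold change of Gbp2 was 1.04 (SE 0.14, adjusted p = 0.000339) at 8 weeks, 1.52 (SE 0.16, adjusted p = 5.75e-05) at 14 weeks and 1.25 (SE 0.46, adjusted p = 0.0818) at 20 weeks in NT liver. In nodules it was 1.55 (SE 0.14, adjusted p = 4.61e-05) at 14 weeks and 1.23 (SE 0.29, adjusted p = 0.00552) at 20 weeks. In NT liver at 20 weeks the fold change was no smaller than at 8 weeks and did not pass the test. Igtp (Irgm3), which guards vacuole membranes, was lower at 14 weeks in NT liver (-0.67, SE 0.13, adjusted p = 0.00141) and in nodules at 14 and 20 weeks (-0.67 and -0.57, adjusted p = 0.00926 and 0.00439). At 20 weeks that call was lost without H26 (-0.49) or with nodule 1 of each rat alone.

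Of the 3 ADP-ribosylation members tested, 1 was lower in NT liver at 14 weeks, 2 in nodules at 14 weeks and 3 in nodules at 20 weeks. In these comparisons 9.85%, 15.2% and 15.2% of all genes were lower. Parp9 and Dtx3l form a complex that marks histones and viral proteins, and Parp14 modifies proteins in interferon and interleukin signalling. Parp9 was lower in NT liver at 14 weeks (-0.65, SE 0.07, adjusted p = 3.45e-05) and in nodules at 14 and 20 weeks (-0.73 and -0.60, adjusted p = 0.000392 and 0.000808). At 14 weeks it was at 96.8 to 103 CPM in untreated liver, 56.2 to 67.4 CPM in NT liver and 54.0 to 71.5 CPM in nodules, without overlap between untreated and DEN tissue. Dtx3l was lower in nodules at 14 weeks (-0.79, adjusted p = 0.0262) and 20 weeks (-0.57, adjusted p = 0.0442), and Parp14 at 20 weeks (-0.63, adjusted p = 0.00355). With H rats only, Dtx3l at 20 weeks was at -0.40 (adjusted p = 0.0967) and Parp14 at -0.49 (adjusted p = 0.00329), and Parp14 was also lost at 20 weeks with nodule 2 of each rat alone. Dtx3l was also lost at 14 weeks without H22, H09 or H10 or with nodule 1 of each rat alone (adjusted p up to 0.0947), and at 20 weeks without H28, H14, H15 or H16, with nodule 2 alone, without the filter or in the fit of all 8 groups (adjusted p up to 0.176).

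Of the Isg15 system, Isg15 was called higher once and Trim25 lower once. Isg15 was at 12.4, 8.35, 11.7 and 8.37 CPM in the 4 no DEN livers at 8 weeks, 9.48, 14.7, 11.1 and 11.6 CPM at 14 weeks, and 9.43, 12.02, 9.94 and 8.27 CPM at 20 weeks. NT liver was at 20.0, 19.0, 24.5 and 23.6 CPM at 8 weeks, 14.7, 13.1, 11.03 and 13.8 CPM at 14 weeks, and 14.6, 11.9, 10.4 and 12.1 CPM at 20 weeks. Nodules were at 33.1, 11.5, 10.96 and 12.6 CPM at 14 weeks and 15.8, 11.6, 10.7 and 10.1 CPM at 20 weeks. NT liver at 8 weeks lay above all untreated livers, while at 14 and 20 weeks NT liver overlapped the untreated range. Isg15 was higher in NT liver at 8 weeks (log2 fold change 1.09, SE 0.15, adjusted p = 0.000486) and was not called at 14 weeks (0.20, adjusted p = 0.232) or 20 weeks (0.31, adjusted p = 0.115), nor in nodules at 14 weeks (0.53, adjusted p = 0.258) or 20 weeks (0.26, adjusted p = 0.223). The effect of DEN differed between these times: at 14 weeks it was smaller than at 8 weeks, with a log2 difference of -0.89 (SE 0.21, adjusted p = 0.0185), which did not pass in 1 fit of all 8 groups (adjusted p = 0.1502). Usp18, the protease that removes Isg15 and dampens receptor signalling, was called in none (-0.02 to 0.38), and Trim25 was lower in nodules at 20 weeks (-0.68, SE 0.18, adjusted p = 0.0101).

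Ifi27, a small membrane protein of mitochondria and the nuclear envelope, gave the other difference over time. Ifi27 was at 625, 534, 510 and 522 CPM in the 4 no DEN livers at 8 weeks, 505, 628, 563 and 521 CPM at 14 weeks, and 482, 506, 491 and 525 CPM at 20 weeks. NT liver held 582, 707, 454 and 523 CPM at 8 weeks, 357, 278, 288 and 333 CPM at 14 weeks, and 486, 424, 314 and 337 CPM at 20 weeks. Nodules held 675, 307, 321 and 315 CPM at 14 weeks and 586, 378, 322 and 247 CPM at 20 weeks. NT liver at 14 weeks lay below the untreated livers without overlap, at 8 weeks it spread around them, and the F rat was the highest of 4 at 14 and 20 weeks in both tissues. Ifi27 was lower in NT liver at 14 weeks (log2 fold change -0.78, SE 0.11, adjusted p = 0.000150), and its effect of DEN at 14 weeks differed from that at 8 weeks by -0.83 (SE 0.17, adjusted p = 0.0109). In that comparison edgeR called 0 members higher and 2 lower, where 3.4% of all genes were higher and 3.11% lower. DESeq2 called 1 higher, Gbp5 (0.84), and 2 lower, Isg15 (-0.90) and Ifi27 (-0.84), where 4.73% of all genes were higher and 3.94% lower. With H rats only edgeR called 0 members higher and 8 lower, Isg15 at -1.09 and Ifi27 at -0.69, where 4.14% of all genes were higher and 2.73% lower in the same fit. Without rat H17, F06, H23 or H09 there were 4 to 5 calls, 0 to 1 higher and 3 to 4 lower, where 2.61 to 6.19% of all genes were higher and 2.86 to 5.36% lower. In 1 fit of all 8 groups neither Isg15 nor Ifi27 passed (adjusted p = 0.1502 and 0.128). Between 14 and 20 weeks 0 members differed in their effect of DEN by edgeR, where 0.338% of all genes were higher and 0.365% lower, and 6 of 34 had an unadjusted p under 0.05, against 17% of all genes. DESeq2 called 1 member, Cmpk2, lower, where it called 1.12% of all genes higher and 1.62% lower. Ifi44 and Ifi35, of less certain function, were called in none.

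**Figure D4:**
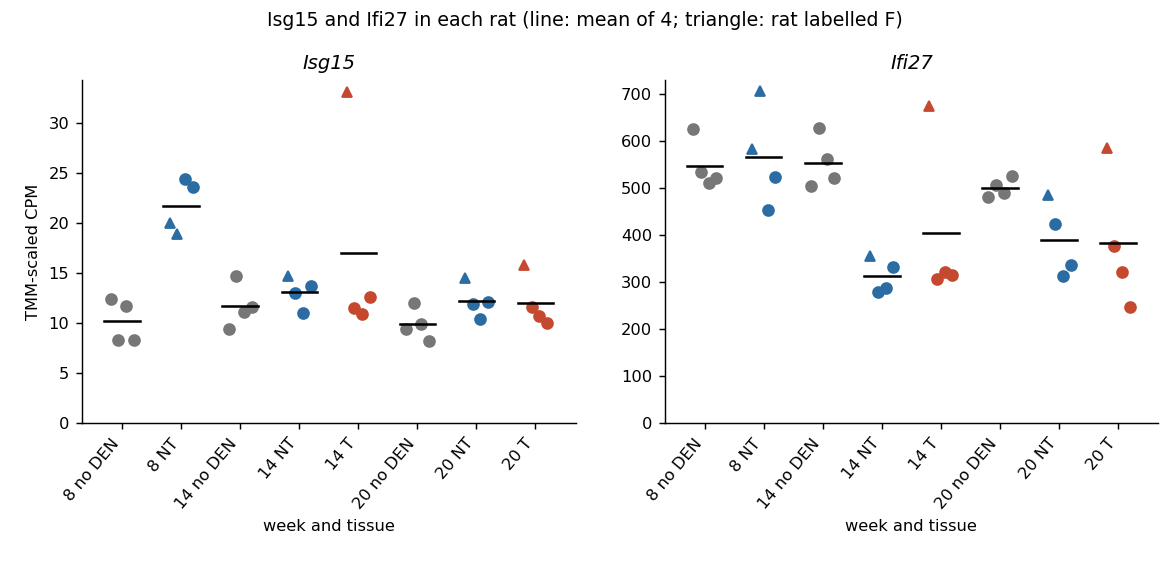
Isg15 (left) and Ifi27 (right) in each rat, in TMM-scaled CPM from 0, by week and tissue, with grey for no DEN liver, blue for NT liver, red for nodules, triangles for rats labelled F and lines at the mean of 4 rats. Isg15 in NT liver is highest at 8 weeks (19.0 to 24.5 CPM), Ifi27 in NT liver is lowest at 14 weeks (278 to 357 CPM), and rat F06 stands apart in the nodules at 14 weeks (33.1 and 675 CPM).

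With H rats only some members passed that did not with all rats. In NT liver at 8 weeks these were Irf7 (log2 fold change 0.60), Usp18 (0.59) and Bst2 (-0.52), and at 14 weeks Oas1b (-0.69). In nodules against no DEN liver they were Ifi27 (-0.81), Oas1b (-0.70) and Mx2 (-0.55) at 14 weeks and Ifi27 (-0.68), Dhx58 (-0.53) and Irf9 (-0.51) at 20 weeks, with adjusted p from 6.29e-06 to 0.00947 over these 10 calls. For the change of the effect of DEN from 8 to 14 weeks they were Ifi44 (-0.70), Usp18 (-0.64), Dhx58 (-0.62), Parp9 (-0.60), Eif2ak2 (-0.60) and Ddx58 (-0.51), with adjusted p from 0.00482 to 0.0248. In the H rat fits of NT liver 13.8% of all genes were higher and 4.01% lower at 8 weeks, and 23.1% and 11.6% at 14 weeks. In those of nodules 25.8% were higher and 15.7% lower at 14 weeks, and 22.9% and 14.2% at 20 weeks. The shares for the change of effect are given above.

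Nodules were next compared with NT liver, which asks whether the tumor differs from the tissue around it. By edgeR without the rat as a block 0 of 34 members were called at 14 weeks and 0 at 20 weeks, where 0% of 11466 and 0% of 11546 genes were called. At an unadjusted p under 0.05 there were 4 members at 14 weeks and 11 at 20 weeks, against 11.8% and 24% of all genes. DESeq2 called 0 and 2, Isg20 and Oasl, both higher, where at 20 weeks it called 5.27% of all genes higher and 2.09% lower. NT liver and nodules came from the same rats, and with the rat as a block 0 members were called at 14 weeks, where 0% of all genes were called, and 10 had an unadjusted p under 0.05, against 22% of all genes. At 20 weeks the block gave 2 higher and 2 lower members, where 9.21% of all genes were higher and 5.46% lower. The unblocked count at 20 weeks became 1, Ddx58, lower, without rat H25, where 2.2% of all genes were higher and 1.64% lower.

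At 20 weeks Isg20 was at 2.58, 2.05, 2.96 and 3.45 CPM in NT liver of rats F03, H25, H26 and H28 and at 4.26, 3.74, 6.75 and 9.76 CPM in their nodules. Each rat was higher in its nodules, and the tissues did not overlap (blocked log2 fold change 1.07, SE 0.14, adjusted p = 0.000157, and unblocked adjusted p = 0.102). Oasl was at 9.72, 7.81, 9.60 and 11.5 CPM in NT liver and at 12.6, 10.8, 17.05 and 18.2 CPM in the nodules of the same rats. It was higher in the nodules of 4 of 4 rats (blocked 0.57, SE 0.10, adjusted p = 0.00119, and unblocked adjusted p = 0.1196).

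Ddx58 went down within each rat, from 73.4, 82.2, 88.1 and 89.9 CPM in NT liver to 56.5, 74.0, 57.7 and 52.5 CPM in nodules. The nodules of H25 lay just above NT liver of F03, so the tissues overlapped, and the blocked log2 fold change was -0.51 (SE 0.10, adjusted p = 0.00267, and unblocked adjusted p = 0.0995). Oas1b was at 4.24, 3.58, 3.00 and 2.64 CPM in NT liver and at 3.09, 2.48, 2.22 and 1.65 CPM in nodules, lower in 4 of 4 rats (blocked -0.55, SE 0.13, adjusted p = 0.00767, and unblocked adjusted p = 0.190). Oas1a gave a blocked -0.46 (adjusted p = 0.00239) and Cmpk2 0.41 (adjusted p = 0.00777), both under the size limit. In the same blocked comparison 4 of 45 cell type markers were higher, Krt19, Sox9 and Epcam of bile duct cells and Col1a1 of stellate cells and fibroblasts, and 5 were lower, the hepatocyte markers Alb, Cps1 and Ttr and the macrophage markers Marco (-0.81) and Vsig4 (-0.50), while 0 of 3 pan-leukocyte markers were called. Their part in the member results was not tested.

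**Figure D5:**
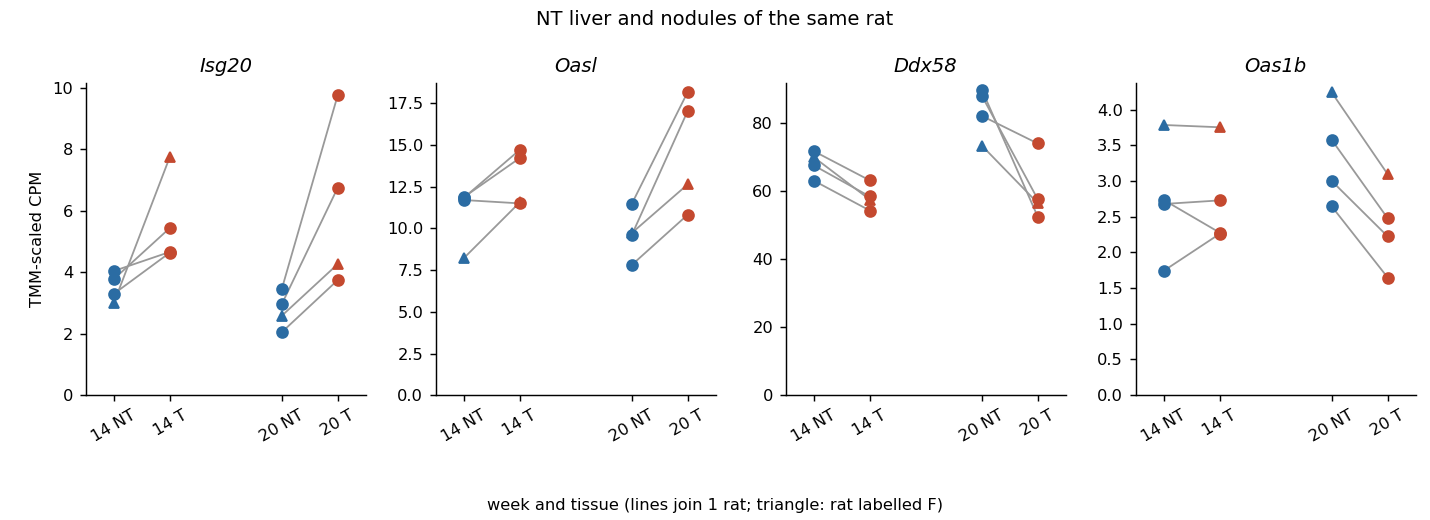
Isg20, Oasl, Ddx58 and Oas1b in NT liver (blue) and nodules (red) of the same rat, joined by lines, at 14 and 20 weeks, in TMM-scaled CPM from 0, with triangles for rats labelled F. At 20 weeks all 4 lines rise for Isg20 and Oasl and fall for Ddx58 and Oas1b, while at 14 weeks all 4 rise for Isg20 and fall for Ddx58, and Oasl and Oas1b show no common slope.

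Untreated livers were compared over time as the background for these changes. By edgeR 0 of 34 members were called between 8 and 14 weeks, with 7 at an unadjusted p under 0.05, against 9.9% of all genes. Between 14 and 20 weeks 0 of 33 were called, with 0 at an unadjusted p under 0.05, against 6.42% of all genes, and DESeq2 also called 0 in both. Of all genes 0% of 10486 and 0% of 10432 were called. Without rat H07 edgeR called 1 member between 8 and 14 weeks, Trim25, higher, where 0.853% of all genes were higher and 0.256% lower. Oas3 and Oas2 had the largest shifts between 8 and 14 weeks, -0.76 and -0.65 on the log2 scale.

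Around the members, the genes that carry the interferon signal were counted from lists drawn up with earlier results of these data known. None of the 6 interferon genes with a row (Ifnb1, Ifna1, Ifna2, Ifna4, Ifnk and Ifng) passed the filter, and none exceeded 0.0638 CPM in any sample. Of the 4 receptors tested in all 5 comparisons, Ifngr2, a chain of the interferon gamma receptor, was the one called. It was at 15.8 to 20.2 CPM in untreated liver and at 22.8 to 30.3 CPM in NT liver at 14 weeks and nodules, with log2 fold changes of 0.55 in NT liver at 14 weeks and 0.51 and 0.66 in nodules at 14 and 20 weeks. Ifnlr1, the lambda interferon chain, lay below 1 CPM in every sample, at 0 to 0.252 CPM in untreated liver and at most 0.624 CPM in DEN tissue. It passed the filter on low counts in NT liver at 14 weeks and in nodules, where it was highest, and was not tested in NT liver at 8 and 20 weeks, so its calls there are not read as a result. None of the kinases Jak1, Jak2 and Tyk2 was called higher, and Jak1 was lower in nodules at 14 and 20 weeks (-0.63 and -0.60). Among upstream sensors, Tmem173 (STING), which answers cytosolic DNA, was higher in all 5 comparisons (log2 fold changes 1.13 to 1.71), as were Irf5, Irf8 and Tlr7, while Mavs, the adaptor of RIG-I, was lower in nodules (-0.62 and -0.70). Of the 36 pathway genes with a row, 28, 29 and 28 were tested in NT liver at 8, 14 and 20 weeks, where 6, 9 and 7 were higher and 0 lower, against 16.5%, 22.8% and 14.3% of all genes higher and 5.21%, 9.85% and 3.82% lower. In nodules 29 were tested at each time, of which 9 and 10 were higher and 4 and 3 lower at 14 and 20 weeks, against 23.9% and 23.6% of all genes higher and 15.2% lower at both. The counts higher in NT liver at 14 weeks and in nodules include Ifnlr1. Socs1 is counted here in each comparison and again among the interferon gamma genes below.

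Of 13 genes tested that answer mainly interferon gamma, 6, 7 and 5 were higher and 0 lower in NT liver at 8, 14 and 20 weeks, and in nodules 8 were higher and 0 lower at 14 weeks and 7 higher and 1 lower at 20 weeks. The shares of all genes given above for the same comparisons were 14.3 to 22.8% higher and 3.82 to 9.85% lower in NT liver, and 23.6 to 23.9% higher and 15.2% lower in nodules. The guanylate-binding protein Gbp4 rose from 0.756 to 1.80 CPM in untreated liver to 1.72 to 8.25 CPM in DEN tissue, with log2 fold changes of 1.43 to 2.35. The chemokine Cxcl10 was higher in all 5 comparisons (0.60 to 1.23). Socs1, an inhibitor of Jak kinases, was called higher in all 5 as well (1.07 to 1.79). It lay at only 0.205 to 0.681 CPM in untreated liver and 0.548 to 1.88 CPM in DEN tissue. At such levels it can pass the filter on low counts through the DEN samples, so its calls are not read as a result. The counts of higher genes include it. Ciita, the switch of MHC class II genes, was higher in 4 of the 5 comparisons, and the chemokine Cxcl11 was lower in nodules at 20 weeks (-0.69). The leukocyte markers given above moved with these genes as well, and their part was not tested.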

How the data were processed

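RNA from liver and nodules was sequenced as stranded libraries. The authors aligned read pairs to the rat genome rn6 with STAR 2.7.1a and counted pairs per gene over exons on the reverse strand with HTSeq, and deposited raw counts, 1 table per library, in which pairs with several alignments were not counted. The summary lines of the counting, 32.8 to 45.4% of pairs, were left out. Groups came from the sample labels, and the 2 nodules of a rat were summed.

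Each comparison was fitted over all genes of its groups with edgeR 4.0.16 in R 4.3.3: filterByExpr, TMM scaling, robust quasi-likelihood fit, two-sided F test and Benjamini-Hochberg adjustment over all genes tested. Calls required an adjusted p no higher than 0.05 and a change of 0.5 or more on the log2 scale, up or down. SE was the size of the log2 fold change divided by the square root of F. The script was tested on simulated counts with known changes. No libraries of a group were alike within sampling noise (chi-square per degree of freedom at least 12.9). NT liver and nodules came from the same rats, and their deviations from the group means correlated within each rat (r = 0.37 to 0.54), higher than with any other rat for all but H21 at 14 weeks (0.40, against 0.43 with another rat). Since the pairing is by animal, the blocked fit is given beside the unblocked one.

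Full values were given for up to 12 members with the largest mean absolute log2 fold change against no DEN liver among members called, and in other comparisons for up to 5 called members, from the blocked fit where the unblocked one called none. Other members, and the pathway genes beyond the 6 of largest change per list, were named after their values were seen. The members and lists were chosen with earlier results of these data known. Alternatives were DESeq2 1.42.0, RLE scaling (the size factors of DESeq2), no filter, all 8 groups in 1 fit, leaving out each rat, rats labelled H only, either nodule alone, the rat as block, and a stricter threshold (1 on the log2 scale, adjusted p 0.01). Promoters came from RefSeq, build GRCr8.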

Additional observations from a re-analysis of the deposited data

Results flagged for a closer look

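Among 104 groups of 4 rats examined for the 12 members described in full and for the mean log2 level over members, 1 rat stood far from the other 3 in 7, where chance alone gives about 1 in 20. The test was Dixon's ratio of the gap to the range. Cmpk2 was at 1.92 CPM in untreated rat H09 at 14 weeks, against 3.02 to 3.04 CPM in the others. Gbp2 was at 16.5 CPM in untreated rat H05 at 8 weeks, against 10.9 to 11.8 CPM. Ifit3 was at 11.0003 CPM in the nodules of rat F06 at 14 weeks (others 5.30 to 6.12 CPM), at 4.94 CPM in NT liver of rat H25 at 20 weeks (others 6.95 to 7.33 CPM) and at 6.57 CPM in untreated rat H13 at 20 weeks (others 3.19 to 3.38 CPM). Oas3 was at 0.704 CPM in the same untreated rat H13, against 0.333 to 0.378 CPM. Oasl was at 8.21 CPM in NT liver of rat F06 at 14 weeks, against 11.7 to 11.9 CPM in the other 3.

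The effect of DEN on NT liver differed between 8 and 14 weeks for Isg15 (-0.89 on the log2 scale) and Ifi27 (-0.83), by the interaction test of edgeR given in the report. In 1 fit of all 8 groups neither passed (adjusted p = 0.1502 for Isg15 and 0.128 for Ifi27).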

How the results depend on the processing

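Of 72 member calls, 52 were made under every alternative but the stricter threshold, 27 at that threshold, and 0 reversed. At the stricter threshold the counts were 6, 6 and 2 in NT liver at 8, 14 and 20 weeks, of which 6, 5 and 2 were higher, where 7.29%, 13.1% and 4.89% of all genes were higher and 0.62%, 2.1% and 0.333% lower. They were 6 and 7 in nodules against no DEN liver at 14 and 20 weeks, of which 4 and 5 were higher, where 14.2% and 13.4% of all genes were higher and 4.49% and 3.98% lower, and 0 for the change of effect from 8 to 14 weeks (0.312% higher, 0.169% lower). Between nodules and NT liver at 20 weeks the count of 0 became 2 by DESeq2, 2 higher with all 8 groups in 1 fit (6.92% of all genes higher, 2.53% lower), 1 higher with nodule 1 of each rat alone (1.03% and 0.925%) and 4 with the rat as block. The change of effect from 8 to 14 weeks gave 0 with all 8 groups in 1 fit (0.448% and 0.621%) and 8 with H rats only, of which 2 were called with all rats, and that from 14 to 20 weeks gave 1 by DESeq2. Leaving out 1 rat gave 9 to 13, 14 to 17 and 4 to 9 calls in NT liver at 8, 14 and 20 weeks, where 14 to 17.7%, 21.8 to 23.1% and 9.18 to 15.1% of all genes were higher and 3.53 to 9.15%, 8.82 to 11.6% and 3.25 to 4.92% lower. It gave 16 to 22 calls in nodules at both times, where 21.2 to 25.8% and 20.7 to 24.5% of all genes were higher and 12.6 to 15.7% and 13.3 to 17.5% lower. It gave 0 to 1 between nodules and NT liver at 20 weeks (at most 2.2% of all genes higher and 1.64% lower), 0 to 1 in untreated liver between 8 and 14 weeks (at most 0.853% and 0.256%), and 2 to 5 for the change of effect from 8 to 14 weeks (1.41 to 6.19% and 2.09 to 5.36%). The cause of these shifts was not tested. The block on the rat pairing changed no call at 14 weeks. Ifit1, at 0 to 14 pairs in any library, was too shallow to be tested.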

Other observations

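The nodules of the 2 DEN rats labelled F were set beside the 12 nodules of H rats for members chosen after their values were seen, with each nodule scaled on its own. Ifi27 was at 744 and 642 CPM in the nodules of rat F06 at 14 weeks and at 886 and 426 CPM in those of rat F03 at 20 weeks, and at 236 to 409 CPM in nodules of H rats. Parp14 was at 19.3 and 19.6 CPM in F06 and at 19.4 and 44.2 CPM in F03, and at 35.2 to 64.7 CPM in H rats. Ifih1 was at 7.47 and 10.9 CPM in F06 and at 9.51 and 19.2 CPM in F03, and at 15.3 to 23.2 CPM in H rats. Dtx3l was at 4.70 CPM in both nodules of F06, at 3.86 and 10.9 CPM in F03, and at 8.62 to 18.01 CPM in H rats. Nodule 1 of F03 lay outside the range of H rats for all 4 of these members, while nodule 2 lay inside it for Parp14, Ifih1 and Dtx3l. That nodule 1 had 27.8 read pairs with several alignments per 100 counted pairs, against 13.3 to 17.4 in nodules of H rats. The part of library quality in these levels was not tested.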
